A study of Mus musculus with 16 samples.

Results

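The 9 genes described here encode 3 matrix proteins, fibronectin (Fn1), osteopontin (Spp1) and thrombospondin-1 (Thbs1), the matrix metalloproteinases Mmp8, Mmp9, Mmp12 and Mmp14, the membrane protease Adam8, and the metalloproteinase inhibitor Timp2. They were read from the scanner files by gene symbol, through 11 probes of 60 bases. Of the 9, 8 were among the 21980 genes tested, and Thbs1 was too dim to be tested. The genes were picked with their differences between these groups already known, so levels and differences of the 9 are a description and carry no p-values. Whether a member passed the threshold, an adjusted p under 0.05 over all genes, is given only to show how the fit depended on its settings. Such a call is no evidence for a difference, because the genes were picked on it.

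RNA was measured on 16 single-colour arrays, 4 for each of 4 cell populations sorted from untreated C57BL/6 mice, with 1 ng of RNA per sample. All 3 heart macrophage gates took live cells positive for CD45, MerTK and CD64 and negative for Ly6c. CCR2+ macrophages (CCR2+ Mac) were also CCR2-high and MHCII-high. MHC-IIHi macrophages (MHC-IIHi Mac) lacked CCR2 and were MHCII-high with low CD11c, and MHC-IIlo macrophages (MHC-IIlo Mac) lacked CCR2 and CD11c and were MHCII-low. Ly6cHi monocytes (Ly6cHi Mono) came from blood. The labels give no ages and do not say whether replicates were separate mice, so error values measure the spread between samples, which may be technical.

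The extracellular matrix is the protein scaffold around cells, and macrophages both add to it and take it apart. Metalloproteinases are zinc enzymes that cut collagen, elastin and other matrix proteins as well as signalling proteins, and tissue inhibitors such as Timp2 block them. In the heart this turnover is known for its part in wound repair and scar formation.

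Levels are log2 signals relative to the 75th percentile of the same array, so 0 is a fairly bright probe, and levels of different genes cannot be set against each other. Summed linear levels of marker lists, given below, are led by the brightest probes and do not measure the share of a cell type. A probe was called well above background by the scanner software. Between 52.8% and 69.3% of spots on an array passed that call. Where no array of a group passed it, only a bound ("at least N-fold") is stated. For that bound every array of the dim group takes its faintest passing signal, or the probe's own signal where that is brighter. All other differences are on the log2 scale, the group named first minus the other, and the ± beside them is the SE of the limma fit over 4 arrays a group. Ccr2 followed the gate, with a level of 0.56 ± 0.18 in CCR2+ macrophages, -3.31 ± 0.53 in MHC-IIHi macrophages, -3.91 ± 0.76 in MHC-IIlo macrophages and 1.06 ± 0.15 in monocytes (SD, n = 4 each). Mertk was well above background on every macrophage array and on no monocyte array. Ly6c1 was well above background on every array, though highest in monocytes. Its level was 1.92 to 3.63 in CCR2+, 1.01 to 1.56 in MHC-IIHi and 1.28 to 1.55 in MHC-IIlo macrophages. Itgax, the CD11c gene, was well above background on every MHC-IIlo array, though below the other macrophages. Fcgr1, the CD64 gene, overlapped between macrophages and monocytes. H2-Ab1, an MHCII gene, was lower in MHC-IIlo than in the other macrophages. Each group kept to a fixed slide position, which therefore cannot be told apart from the group.

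The probes below carry the values for Spp1, Mmp12 and Mmp14, whose levels ran together over the arrays, and for the second reading of Timp2. They are given 5′ to 3′ as designed, with the first base at the transcript position that the scanner files list, which is 628 for Spp1 on chromosome 5, 735 for Mmp12 on chromosome 9, 1596 for Mmp14 on chromosome 14 and 652 for Timp2 on chromosome 11.
Spp1: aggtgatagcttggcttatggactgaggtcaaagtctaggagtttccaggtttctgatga
Mmp12: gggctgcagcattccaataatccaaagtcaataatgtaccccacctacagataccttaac
Mmp14: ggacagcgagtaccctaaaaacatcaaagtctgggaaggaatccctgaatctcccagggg
Timp2: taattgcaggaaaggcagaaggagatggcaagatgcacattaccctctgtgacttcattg

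Promoter sequence of the 3 genes that ran together was taken from RefSeq (GRCm38.p6) and searched on both strands for TGANTCA, the AP-1 motif, and GGGCGG, the GC box. The 120 bases before an annotated start are printed, at chr5:104434991-104435110 for Spp1, chr9:7347254-7347373 for Mmp12 and chr14:54431478-54431597 for Mmp14, all on the plus strand. Capitals mark motif matches.
Spp1: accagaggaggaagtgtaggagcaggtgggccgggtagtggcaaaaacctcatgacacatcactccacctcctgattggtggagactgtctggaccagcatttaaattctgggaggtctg
Mmp12: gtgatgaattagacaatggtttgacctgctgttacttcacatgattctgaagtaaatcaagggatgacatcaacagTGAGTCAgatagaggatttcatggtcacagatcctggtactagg
Mmp14: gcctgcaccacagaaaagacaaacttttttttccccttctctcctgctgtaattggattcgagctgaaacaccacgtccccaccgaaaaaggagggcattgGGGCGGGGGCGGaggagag

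The Mmp12 stretch held 1 AP-1 match, starting 44 bases before that annotated start, and 3.41% of the 32851 promoters in the table held one in a stretch of that length. The Mmp14 stretch held 2 adjoining GC boxes, and 26.48% of promoters held at least 1. Neither motif was found in the Spp1 stretch. A match is a description of these letters only. Over the 250 bases before the start, 8 promoters of 6 of the 9 genes were in the table, and the AP-1 motif was found in that Mmp12 promoter alone among the 8. The upstream one of the 2 Mmp12 starts had no match, and the other was printed because it holds one. Fn1, Mmp9 and Thbs1 had no entry.

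**Figure D1:**
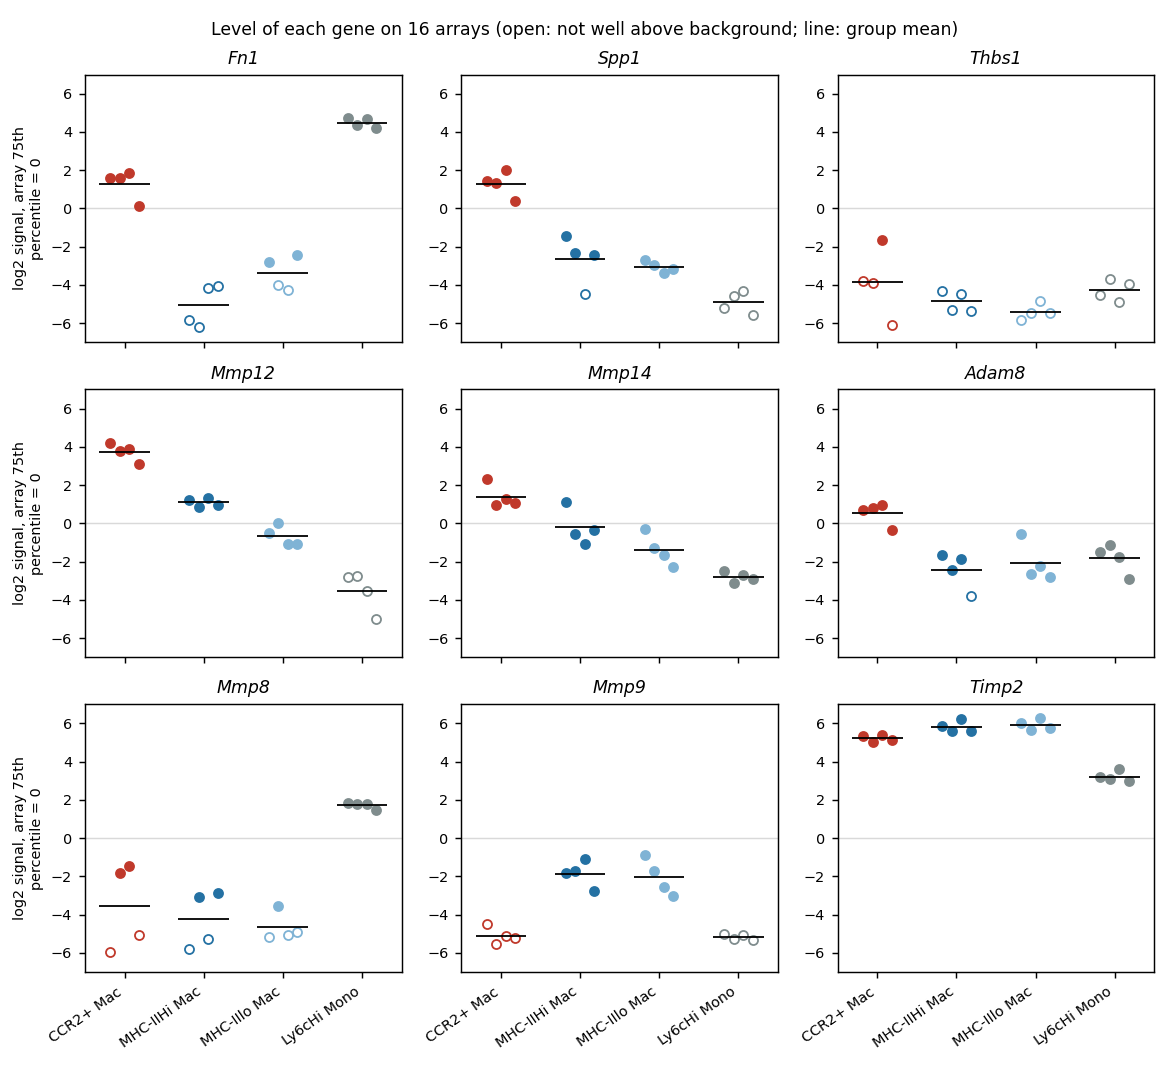
Level of each of the 9 genes on the 16 arrays, as log2 signal with the 75th percentile of the array at 0. Each point is an array, open points were not well above background and lines are group means of 4 arrays; Mmp12 falls stepwise across the 4 groups, while Fn1 and Mmp8 are highest in Ly6cHi monocytes.

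Fibronectin, a large glycoprotein that cells grip through integrins, was highest in monocytes, intermediate in CCR2+ macrophages and at or near background in both CCR2-negative groups. Fn1 was at 1.58, 1.59, 1.86 and 0.13 in CCR2+ macrophages, at -5.81, -6.21, -4.15 and -4.05 in MHC-IIHi macrophages, at -2.82, -4.02, -4.29 and -2.44 in MHC-IIlo macrophages and at 4.74, 4.36, 4.66 and 4.18 in monocytes. CCR2+ macrophages overlapped with no other group, while no MHC-IIHi array was well above background and these arrays overlapped with the MHC-IIlo arrays. Fn1 was at least 31.4-fold higher in CCR2+ than in MHC-IIHi macrophages and differed by 4.68 ± 0.54 from MHC-IIlo macrophages. Against monocytes it differed by -3.20 ± 0.54 in CCR2+ macrophages and by -7.88 ± 0.54 in MHC-IIlo macrophages, and was at least 288-fold lower in MHC-IIHi macrophages. Fewer cells of one kind and less RNA per cell cannot be told apart in such bulk samples.

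Osteopontin, a secreted phosphoprotein that binds integrins and CD44, separated CCR2+ macrophages from all other groups. Spp1 was at 1.43, 1.33, 1.99 and 0.41 in CCR2+ macrophages, at -1.43, -2.34, -4.49 and -2.41 in MHC-IIHi macrophages, at -2.67, -2.95, -3.36 and -3.18 in MHC-IIlo macrophages and at -5.18, -4.57, -4.32 and -5.57 in monocytes. All 4 CCR2+ arrays lay above every other array, the CCR2-negative groups overlapped, and no monocyte array was well above background. The difference was 3.96 ± 0.52 between CCR2+ and MHC-IIHi macrophages and 4.33 ± 0.52 between CCR2+ and MHC-IIlo macrophages. Relative to monocytes, the Spp1 level was higher by at least 21.5-fold in CCR2+, 1.38-fold in MHC-IIHi and 1.07-fold in MHC-IIlo macrophages. The MHC-IIlo call was lost without replicate 4 of monocytes, and neither CCR2-negative group passed with normexp background correction.

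Thrombospondin-1, a glycoprotein known from platelet granules that can activate latent TGF-beta, was scarcely detected. Its probe passed the background call on 1 of 16 arrays, replicate 3 of CCR2+ macrophages at -1.65, and the other CCR2+ arrays were at -3.81, -3.88 and -6.10. It ranged from -5.36 to -4.29 in MHC-IIHi macrophages, from -5.81 to -4.82 in MHC-IIlo macrophages and from -4.87 to -3.68 in monocytes. These values do not rank the groups.

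Mmp12, the macrophage elastase, fell in order from CCR2+ to MHC-IIHi to MHC-IIlo macrophages to monocytes, and no neighbouring groups overlapped. It was at 4.18, 3.76, 3.86 and 3.10 in CCR2+ macrophages, at 1.22, 0.88, 1.33 and 0.93 in MHC-IIHi macrophages, at -0.51, 0.01, -1.08 and -1.06 in MHC-IIlo macrophages and at -2.80, -2.76, -3.53 and -4.98 in monocytes, where no array was well above background. The CCR2+ level differed by 2.63 ± 0.42 from MHC-IIHi and by 4.38 ± 0.42 from MHC-IIlo macrophages. The difference of 1.75 ± 0.42 between MHC-IIHi and MHC-IIlo macrophages missed the threshold, and passed it with the replicate number as a block. Mmp12 was at least 105-fold, 16.9-fold and 5.02-fold higher in CCR2+, MHC-IIHi and MHC-IIlo macrophages than in monocytes. A second Mmp12 probe, whose first base is at transcript position 3518, was not well above background on any array, at -6.11 to -4.83, so the probes disagree and every Mmp12 value rests on 1 probe.

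Mmp14, a membrane-anchored metalloproteinase that cleaves collagen and activates pro-Mmp2, was graded in the same order with more overlap. It was at 2.33, 0.94, 1.27 and 1.07 in CCR2+ macrophages, at 1.13, -0.56, -1.07 and -0.36 in MHC-IIHi macrophages, at -0.31, -1.26, -1.64 and -2.29 in MHC-IIlo macrophages and at -2.50, -3.12, -2.69 and -2.93 in monocytes. Neighbouring macrophage groups overlapped, and monocytes lay below all of them. CCR2+ macrophages differed by 1.62 ± 0.47 from MHC-IIHi macrophages, which missed the threshold. It passed with the replicate block (± 0.29), with array weights (1.58) and without replicate 1 of MHC-IIHi macrophages (2.06). They differed by 2.78 ± 0.47 from MHC-IIlo macrophages, and MHC-IIHi differed by 1.16 ± 0.47 from MHC-IIlo macrophages, which missed the threshold. The differences from monocytes were 4.21 ± 0.47 in CCR2+, 2.60 ± 0.47 in MHC-IIHi and 1.43 ± 0.47 in MHC-IIlo macrophages, and the last passed in 8 of 18 settings, being lost in 7 of the 8 fits that left out an array of either group.

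Adam8, a membrane-bound protease of white blood cells, stood out in CCR2+ macrophages alone. It was at 0.71, 0.78, 0.95 and -0.37 there, at -1.64, -2.46, -1.88 and -3.78 in MHC-IIHi macrophages, at -0.55, -2.63, -2.21 and -2.83 in MHC-IIlo macrophages and at -1.49, -1.11, -1.76 and -2.90 in monocytes. The other 3 groups overlapped with each other. CCR2+ macrophages differed by 2.96 ± 0.56 from MHC-IIHi macrophages, by 2.57 ± 0.56 from MHC-IIlo macrophages and by 2.33 ± 0.56 from monocytes. The call against MHC-IIHi macrophages was lost without replicate 2 of CCR2+ macrophages. The call against MHC-IIlo macrophages was lost on leaving out replicate 1, 2 or 3 of CCR2+ or replicate 2, 3 or 4 of MHC-IIlo macrophages, and on fitting only these groups.

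Mmp8, a collagenase best known from neutrophil granules, was a monocyte transcript in these samples. CCR2+ macrophages were at -5.93, -1.81, -1.46 and -5.08, MHC-IIHi macrophages at -5.77, -3.08, -5.26 and -2.89, MHC-IIlo macrophages at -5.14, -3.56, -5.04 and -4.89, and monocytes at 1.85, 1.81, 1.81 and 1.49. Only 2, 2 and 1 arrays of the macrophage groups were well above background, those groups overlapped, and every monocyte array lay above them. The differences from monocytes were -5.31, -5.99 and -6.40 (± 0.90 each) in CCR2+, MHC-IIHi and MHC-IIlo macrophages.

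The 2 CCR2+ arrays with detectable Mmp8, replicates 2 and 3, were also those with detectable S100a9, a calcium-binding protein abundant in neutrophils, at -1.83 and -1.12, against -5.97 and -6.15 in replicates 1 and 4. S100a9 was also detectable on every monocyte array, at -1.03 to 0.20. Of the other neutrophil markers, Ly6g, Camp, Cxcr2, Lcn2 and Csf3r were well above background on every CCR2+ array. S100a8, Ngp, Ltf and Retnlg were so on none and Mpo on some. In MHC-IIHi and MHC-IIlo macrophages the arrays with detectable S100a9 and Mmp8 were not the same set. Of 11 neutrophil markers, 7 were well above background on some array of each macrophage group and 8 in monocytes. Ngp and Ltf were dim in all 4 groups. The summed linear level of the list ran from 34.55 to 44.4 in CCR2+, 33.55 to 50.65 in MHC-IIHi and 31.27 to 43.09 in MHC-IIlo macrophages, against 45.21 to 49.56 in monocytes. Nearly all of that sum was Csf3r, a receptor that monocytes also carry, at 4.98 to 5.35 in CCR2+, 4.93 to 5.58 in MHC-IIHi and 4.85 to 5.32 in MHC-IIlo macrophages and at 5.37 to 5.51 in monocytes. The part of neutrophil RNA in the Mmp8 values was not tested.

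Mmp9, a gelatinase that cuts denatured collagen and basement membrane, had the reverse pattern among macrophages. Its probe, printed on 10 spots, was at -4.48, -5.55, -5.12 and -5.21 in CCR2+ macrophages, at -1.82, -1.74, -1.06 and -2.76 in MHC-IIHi macrophages, at -0.86, -1.70, -2.54 and -3.01 in MHC-IIlo macrophages and at -5.01, -5.28, -5.04 and -5.30 in monocytes. The CCR2-negative groups overlapped and lay above the others, and no CCR2+ or monocyte array was well above background. Mmp9 was at least 4.14-fold lower in CCR2+ than in MHC-IIHi macrophages and at least 3.64-fold lower than in MHC-IIlo macrophages. It was at least 2.45-fold higher in MHC-IIHi macrophages and 2.16-fold higher in MHC-IIlo macrophages than in monocytes. With normexp background correction none of these 4 differences passed.

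Timp2, which blocks metalloproteinases and also joins Mmp14 in activating pro-Mmp2, was a bright transcript in all groups. It was at 5.33, 5.02, 5.40 and 5.14 in CCR2+ macrophages, at 5.86, 5.59, 6.24 and 5.59 in MHC-IIHi macrophages, at 6.00, 5.67, 6.28 and 5.77 in MHC-IIlo macrophages and at 3.18, 3.08, 3.63 and 3.01 in monocytes. The CCR2-negative groups overlapped, CCR2+ macrophages lay just below both, and monocytes lay lowest. The difference from monocytes was 2.00 ± 0.21 in CCR2+, 2.59 ± 0.21 in MHC-IIHi and 2.71 ± 0.21 in MHC-IIlo macrophages. CCR2+ macrophages differed by -0.60 ± 0.21 from MHC-IIHi and by -0.71 ± 0.21 from MHC-IIlo macrophages, which missed the threshold, while both passed with the replicate block (± 0.11). The second also passed with array weights (-0.70) and with the mean of both probes (-0.85). The second Timp2 probe, printed above, gave the same order of means, 3.98 ± 0.11 in CCR2+, 4.67 ± 0.36 in MHC-IIHi and 4.98 ± 0.20 in MHC-IIlo macrophages and 1.39 ± 0.19 in monocytes (SD, n = 4 each).

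**Figure D2:**
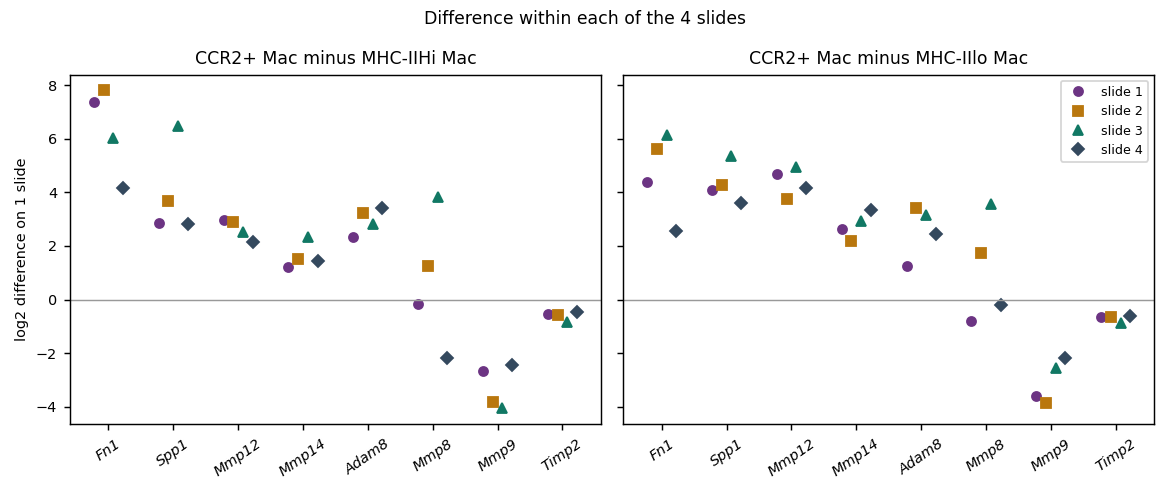
Difference between CCR2+ macrophages and each CCR2-negative group on each of the 4 slides, as log2 signal, with 1 array of each group per slide. Fn1, Spp1, Mmp12, Mmp14 and Adam8 lie above 0 and Mmp9 and Timp2 below 0 on all 4 slides in both panels, and Mmp8 lies on both sides of 0.

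Each slide held 1 array of every group and had its own scan time on a shared day. Within slides, CCR2+ minus MHC-IIHi ran from 4.18 to 7.80 for Fn1, from 2.82 to 6.48 for Spp1 and from 2.16 to 2.95 for Mmp12. It ran from -0.84 to -0.45 for Timp2 and from -2.19 to 3.81 for Mmp8.

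Some dendritic cell markers differed beside these genes. Cd209a, a lectin of dendritic cells, differed by 2.75 ± 0.62 between CCR2+ and MHC-IIHi macrophages and by 2.53 ± 0.62 between CCR2+ and MHC-IIlo macrophages (limma adjusted p = 0.0411 and 0.0383). Dpp4, a membrane peptidase, differed by 1.84 ± 0.30 and 1.33 ± 0.30 (adjusted p = 0.00543 and 0.0256). The other 4 tested markers did not pass in these comparisons. By group means Flt3 and Ccr7 were higher and Zbtb46 was lower in CCR2+ than in both CCR2-negative groups, and Btla was dim on every macrophage array. In monocytes Dpp4 was at -0.87 to -0.01, above the CCR2+ range of -2.43 to -2.08. Cd209a was at -1.01 to 0.44 in monocytes and at -1.79 to 0.49 in CCR2+ macrophages. The summed linear level of the 8 listed was 1.68 to 3.11 in CCR2+, 1.03 to 1.48 in MHC-IIHi and 0.873 to 1.81 in MHC-IIlo macrophages and 3.28 to 4.15 in monocytes, with 6, 6, 5 and 7 of the 8 well above background on some array. Xcr1 was dim in all 3 macrophage groups. Their part in the values of the 9 genes was not tested.

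**Figure D3:**
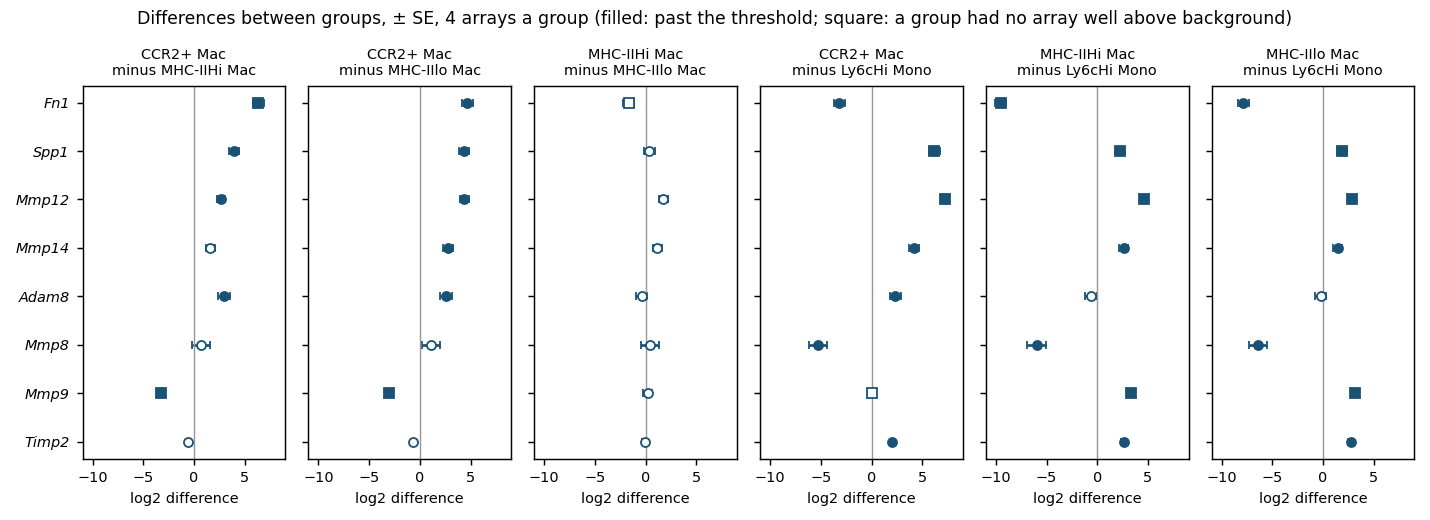
Log2 difference ± SE for the 8 tested genes in the 6 comparisons, 4 arrays a group. Filled symbols passed the threshold, and squares mark comparisons in which at least 1 group had no array well above background, where the plotted value is the fitted difference and not a bound. Of the 8 genes, 5, 6 and 0 are filled in the 3 comparisons between macrophages and 7 in each comparison with monocytes.

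Across all genes, an adjusted p under 0.05 was used as the threshold. In CCR2+ against MHC-IIHi macrophages 5 of the 8 tested members passed it, 4 higher and 1 lower, where 1.25% of all genes did (0.641% higher, 0.61% lower). In CCR2+ against MHC-IIlo macrophages 6 passed, 5 higher and 1 lower, against 2.78% (1.5% higher, 1.28% lower). In MHC-IIHi against MHC-IIlo macrophages 0 passed with limma, against 0.0682% (0.05% higher, 0.0182% lower). There 3 had an unadjusted p under 0.05, beside 859 of all 21980 genes. Against monocytes 7 passed in each macrophage group, 5 higher and 2 lower, where 21.7% of genes passed for CCR2+ (9.97% higher, 11.7% lower), 21.4% for MHC-IIHi (10.1% higher, 11.4% lower) and 21.3% for MHC-IIlo macrophages (10.1% higher, 11.2% lower). Groups did not overlap for 6 of the 8 members in CCR2+ against MHC-IIHi macrophages (7.79% of all genes), 7 in CCR2+ against MHC-IIlo macrophages (8.28%) and 1, Mmp12, in MHC-IIHi against MHC-IIlo macrophages (2.32%). Against monocytes they did not overlap for 7 in CCR2+ (24.9%), 6 in MHC-IIHi (22.6%) and 7 in MHC-IIlo macrophages (22.8%). Because the members were chosen on these contrasts, and Fn1, Spp1, Mmp8, Mmp9 and Mmp12 entered the tests through the groups where they were bright, nothing is read from these counts.

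Over the 16 arrays, which share slides and groups, Pearson's r was 0.93 between Mmp12 and Mmp14, 0.91 between Mmp12 and Spp1 and 0.91 between Mmp14 and Spp1. It was 0.77 between Fn1 and Mmp8 and -0.88 between Fn1 and Mmp9. The genes most like a member were Clec4e (0.973) and Fanca (0.965) for Fn1 and Klrb1 (0.922) and Pvr (0.914) for Spp1. They were Rasa1 and Ccdc152 (0.954 each) for Mmp9, Tnfrsf12a (0.972) and Klrb1 (0.959) for Mmp12, and Klrb1 (0.937) and Cxcl10 (0.936) for Mmp14. For Timp2 they were Tmem37 (0.992) and Snx5 (0.987), and for Adam8 Tcirg1 (0.879) and Havcr2 (0.876).

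The wider matrix programme was followed with 8 lists holding 149 other genes, of which 120 were tested. These lists too were chosen with earlier results of these data known, so their counts, shares and p-values are a description. A gene given with a bound entered the tests through groups other than the dim one. Its p-value rests on background-level signals in the dim group. In CCR2+ against MHC-IIHi macrophages 4 of 120 passed (3.33%), beside 1.25% of all genes. Plaur, the urokinase receptor, exceeded its MHC-IIHi level at least 2.81-fold in CCR2+ macrophages (limma adjusted p = 0.00461). Ccn1, a matricellular integrin ligand, differed by -2.73 ± 0.47 (adjusted p = 0.00769), F13a1, the transglutaminase that crosslinks fibrin and fibronectin, by -1.42 ± 0.20 (adjusted p = 0.00186) and Adam33, a membrane metalloprotease, by -0.997 ± 0.165 (adjusted p = 0.00581). With the replicate block 7 passed, the same 4 with Gpnmb, Itga4 and Itga5 added, all 3 higher in CCR2+ macrophages. Over all genes the calls rose with the block from 275 to 552.

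In CCR2+ against MHC-IIlo macrophages 5 of 120 passed (4.17%), beside 2.78% of all genes. Gpnmb, a membrane glycoprotein of macrophages, exceeded its MHC-IIlo level at least 1.88-fold in CCR2+ macrophages (limma adjusted p = 0.016). Ccn1 differed by -2.88 ± 0.47 (adjusted p = 0.00238) and F13a1 by -1.94 ± 0.20 (adjusted p = 5.59e-05). The basement membrane genes Nid2, at -1.33 ± 0.29 (adjusted p = 0.0192), and Lamb2, at -1.27 ± 0.31 (adjusted p = 0.0386), were also lower. Ccn1 and F13a1 passed whichever array was left out. Lamb2 passed in 2, Nid2 in 3 and Gpnmb in 6 of the 8 fits that left out an array, and the count was 3 without replicate 2 of CCR2+ or without replicate 4 of MHC-IIlo macrophages. With the replicate block 14 passed, the same 5 and 9 more, among them Itga4 and Itga5 higher and Ctsb and Ctsl lower in CCR2+ macrophages. Over all genes the calls rose with the block from 611 to 1256.

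F13a1 is also a platelet gene. Pf4, a chemokine of platelet granules, was at 3.46 to 4.04 in CCR2+, 4.65 to 5.23 in MHC-IIHi and 5.32 to 5.73 in MHC-IIlo macrophages and at -1.64 to 0.52 in monocytes. F13a1 means had the same order among the macrophages, at 2.66, 4.08 and 4.60, but not in monocytes. There the F13a1 mean was 3.51, above CCR2+ macrophages (CCR2+ minus monocytes -0.85 ± 0.20), while Pf4 was lowest. Pf4 made up most of the summed linear level of 9 platelet markers in macrophages, 15.8 to 19.8 in CCR2+, 28.6 to 40.4 in MHC-IIHi and 45.5 to 56.6 in MHC-IIlo macrophages, against 3.98 to 7.38 in monocytes. The other 7 tested markers did not pass between macrophage groups, and against monocytes Ppbp, another platelet chemokine, differed by -2.04, -2.09 and -2.09 (± 0.56 each) in CCR2+, MHC-IIHi and MHC-IIlo macrophages (limma adjusted p = 0.0172, 0.014 and 0.0138). Of the 9, 8 were well above background on some array of each group, and their part in the F13a1 values was not tested.

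Between MHC-IIHi and MHC-IIlo macrophages 0 of 120 passed with limma, beside 0.0682% of all genes. An unadjusted p under 0.05 was found for 8 of the 120 and for 859 of all 21980 genes. With the replicate block 2 passed, Mmp13 (1.78 ± 0.33, adjusted p = 0.0491) and the lysosomal protease Ctsd (-1.08 ± 0.19, adjusted p = 0.0408). Calls over all genes rose with the block from 15 to 77. Of the 10 other metalloproteinases tested, 0 passed between any 2 macrophage groups without the block, with 1 at an unadjusted p under 0.05 in each comparison. Over all 21980 genes that unadjusted count was 2178 in CCR2+ against MHC-IIHi, 2562 in CCR2+ against MHC-IIlo and 859 in MHC-IIHi against MHC-IIlo macrophages.

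**Figure D4:**
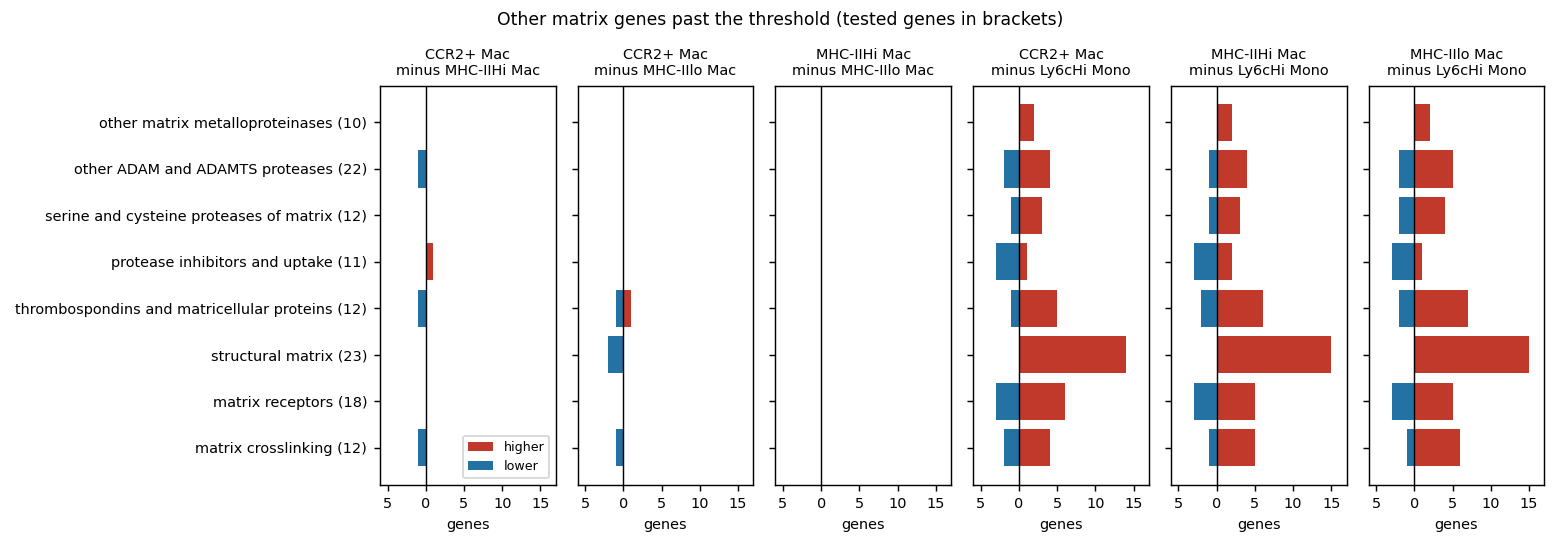
Number of genes per matrix list that passed the threshold, higher to the right and lower to the left of 0, for the 6 comparisons, with the number tested in brackets. The 3 comparisons with Ly6cHi monocytes hold nearly all calls, where structural matrix has 14, 15 and 15 genes higher and 0 lower. Of all genes 21.7%, 21.4% and 21.3% passed in those comparisons.

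Against monocytes, 51 of the 120 passed in CCR2+ macrophages (39 higher, 12 lower), 53 in MHC-IIHi (42 higher, 11 lower) and 58 in MHC-IIlo macrophages (45 higher, 13 lower). These are 42.5%, 44.2% and 48.3% of the 120, beside 21.7%, 21.4% and 21.3% of all genes in the same comparisons. The 3 comparisons share the monocyte arrays. In the structural matrix list 60.9%, 65.2% and 65.2% passed. Structural matrix had 14, 15 and 15 of 23 genes higher in CCR2+, MHC-IIHi and MHC-IIlo macrophages and 0 lower, with a median difference of 1.53, 1.80 and 1.92, or 0.97, 1.23 and 1.28 with genes dim in a group set to their bound. Decorin (Dcn), a collagen-binding proteoglycan, was at least 20.8-fold, 36.6-fold and 43.9-fold higher (limma adjusted p = 5.08e-09, 8.69e-10 and 5.21e-10). No monocyte array was well above background for Dcn, so it entered the tests only through the macrophage groups where it was bright. Nid1, a basement membrane linker, differed by 3.61 ± 0.46, 3.88 ± 0.46 and 3.91 ± 0.46 (adjusted p = 4.6e-05, 1.56e-05 and 1.4e-05).

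Some markers of other heart cells were also higher in macrophages than in monocytes. The summed linear level of 9 fibroblast markers, which share Col1a1, Col1a2, Col3a1 and Dcn with the structural list, was 3.86 to 10.6 in CCR2+, 4.84 to 9.65 in MHC-IIHi and 7.49 to 10.4 in MHC-IIlo macrophages, against 1.28 to 1.51 in monocytes. Nearly all of that sum came from the shared genes, so it could not move apart from the structural list. Of the 9, 6, 5 and 7 were well above background on some array of the macrophage groups and 2 in monocytes, and the fibroblast markers Pdgfra and Dpt were dim in all groups. Of the other unshared markers, Tcf21 was well above background on some array of each macrophage group, Postn in CCR2+ and MHC-IIlo and Lum in MHC-IIlo macrophages alone. All of these were dim in monocytes. The sum of 9 cardiomyocyte markers was 16.3 to 25.5, 20.2 to 29.6 and 18.1 to 29.0 in the same macrophage groups, against 2.14 to 2.64 in monocytes, with Ryr2 dim in all groups. Of these 9, 8 were well above background on some array of each macrophage group and 4 in monocytes. Mb, the myoglobin gene, was at least 25.6-fold, 37.3-fold and 30.6-fold higher than in monocytes, while Nppa did not pass in CCR2+ macrophages. The sum of 8 endothelial markers was 4.52 to 6.46, 3.22 to 5.78 and 3.78 to 5.56, against 2.93 to 4.19 in monocytes, with 7, 7, 7 and 6 of the 8 well above background on some array and Cdh5 dim in all groups. Among them Tie1, a receptor kinase of endothelium, was at least 3.57-fold, 1.76-fold and 2.51-fold higher (limma adjusted p = 0.00117, 0.0139 and 0.00351), Emcn passed in all 3 comparisons, Pecam1 and Vwf passed in CCR2+ macrophages, and Kdr, Tek and Esam did not pass. The part of these cells in the structural matrix values was not tested.

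Matricellular genes had 5, 6 and 7 of 12 higher and 1, 2 and 2 lower, so 50%, 66.7% and 75% passed, beside 21.7%, 21.4% and 21.3% of all genes. Sparc, a collagen-binding protein, differed by 5.60 ± 0.50 in CCR2+ macrophages (limma adjusted p = 1.19e-06), 5.42 ± 0.50 in MHC-IIHi (adjusted p = 1.07e-06) and 5.52 ± 0.50 in MHC-IIlo macrophages (adjusted p = 8.37e-07). Versican (Vcan), a large proteoglycan, was lower, by -3.25 ± 0.66, -4.35 ± 0.66 and -4.26 ± 0.66 (adjusted p = 0.00226, 0.00017 and 0.000204). Among protease inhibitors and uptake genes, 1, 2 and 1 of 11 were higher and 3 were lower in each comparison, so 36.4%, 45.5% and 36.4% passed. Slpi, an inhibitor of neutrophil elastase, differed by -5.35 ± 0.47 in CCR2+ macrophages (adjusted p = 8.48e-07) and was at least 61-fold lower in MHC-IIHi macrophages (adjusted p = 2.81e-08).

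Among serine and cysteine proteases, 3, 3 and 4 of 12 were higher and 1, 1 and 2 lower, so 33.3%, 33.3% and 50% passed. The plasminogen activator Plau differed by 2.24 ± 0.50, 2.13 ± 0.50 and 2.67 ± 0.50 (limma adjusted p = 0.00436, 0.00572 and 0.000971) and the cathepsin Ctsl by 2.08 ± 0.42, 2.46 ± 0.42 and 3.07 ± 0.42 (adjusted p = 0.00207, 0.00047 and 5.76e-05). Other metalloproteinases had 2 of 10 higher and 0 lower in each comparison. That is 20%, no more than the 21.7%, 21.4% and 21.3% of all genes that passed, so nothing is read from this count. Mmp13, a collagenase, was at least 2.27-fold, 4.81-fold and 1.40-fold higher (adjusted p = 1.14e-05, 2.7e-07 and 0.000101). Mmp2, a gelatinase, was counted in MHC-IIlo macrophages (limma adjusted p = 0.0474), but no monocyte array was well above background, no bound on its fold could be set, and the call was lost with the replicate block (adjusted p = 0.0585).

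Other ADAM and ADAMTS proteases had 4, 4 and 5 of 22 higher and 2, 1 and 2 lower. So 27.3%, 22.7% and 31.8% passed, not far from the 21.7%, 21.4% and 21.3% of all genes. Adam19 differed by 1.13 ± 0.21, 1.58 ± 0.21 and 1.43 ± 0.21 (limma adjusted p = 0.00137, 5.5e-05 and 0.000141). Matrix receptors had 6, 5 and 5 of 18 higher and 3 lower in each comparison, so 50%, 44.4% and 44.4% passed. Itga9, an integrin subunit whose ligands include osteopontin, was at least 13.1-fold, 21.3-fold and 15.6-fold higher (adjusted p = 2.8e-08, 5.19e-09 and 1.01e-08). Itga4, a subunit of a fibronectin receptor, differed by -1.78 ± 0.27, -2.51 ± 0.27 and -2.67 ± 0.27 (adjusted p = 0.000191, 5.01e-06 and 2.32e-06). Crosslinking genes had 4, 5 and 6 of 12 higher and 2, 1 and 1 lower, so 50%, 50% and 58.3% passed. The transglutaminase Tgm1 differed by 1.21 ± 0.34, 1.66 ± 0.34 and 1.78 ± 0.34 (adjusted p = 0.0202, 0.00239 and 0.00133).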

How the data were processed

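The authors deposited single-colour (Cy5) scanner output made with Agilent Feature Extraction 11.5.1.1, per the submitters' processing notes. The processed signal of each spot is a linear intensity, per the file headers, and the flag columns (a score of 0 or 1 per spot) are also deposited. Partek is named by the notes without a version. The deposited value table was not used. Of 44397 spots per array, 1377 controls and spots flagged as outliers were left out. Log2 signals had the array's 75th percentile subtracted and spots of a probe were averaged. Probes well above background on at least 4 of 16 arrays were kept (27643), and the brightest stood for a gene. The 75th percentile signal was 846 to 1740, within-group correlations were 0.938 to 0.981, and the number of arrays limits precision.

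limma 3.58.1 in R 4.3.3 fitted 1 mean per group to all 16 arrays (12 residual degrees of freedom), two-sided, with Benjamini-Hochberg adjustment over 21980 genes in each of 6 comparisons. The script was tested on simulated data. Replicate numbers coincide with slides. All 24 same-numbered pairs of arrays from different groups had correlated deviations from their group means (0.138 to 0.638). Of 72 differently numbered pairs, which ran from -0.535 to 0.492, 18 were also over 0.1. Paired samples cannot be told apart from a shared slide by these values, and a replicate block was fitted as an alternative only.

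Named were all 9 members, up to 3 higher and 3 lower genes per list and comparison by size, of which examples are printed, the 2 genes most correlated with each member (not reported here for Mmp8), and genes added by the block, chosen after their values were seen. Members and lists were chosen with earlier results of these data known. Alternatives were background correction, scaling, filter, probe rule, block, array weights, group subsets and leaving out each array.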

Additional observations from a re-analysis of the deposited data

Results flagged for a closer look

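Of 32 sets of 4 arrays, 1 per tested gene and group, 3 held an array set apart from the other 3 by a Dixon test, and chance gives about 1 in 20. Fn1 was at 0.13 in replicate 4 of CCR2+ macrophages, against 1.58 to 1.86 in the other replicates. Mmp8 was at -3.56 in replicate 2 of MHC-IIlo macrophages, against -5.14 to -4.89 in the others, which were not well above background. Mmp8 was at 1.49 in replicate 4 of monocytes, against 1.81 to 1.85 in the others.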

How the results depend on the processing

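No member difference changed sign among those that passed the threshold. Normexp background correction moved 23 of 48 member differences by more than 1 SD, quantile normalization 1 and averaging the kept probes 2. Members past the threshold numbered 1 in MHC-IIHi against MHC-IIlo macrophages with normexp and 1 with the replicate block, and 4 in MHC-IIlo macrophages against monocytes with normexp. Other matrix genes past it in CCR2+ against MHC-IIHi macrophages numbered 7 with the replicate block and 8 with array weights, and in CCR2+ against MHC-IIlo macrophages 3 with median scaling, 9 with the mean of kept probes, 14 with the replicate block and 13 with array weights. In MHC-IIHi against MHC-IIlo macrophages they numbered 2 with the block and 2 with array weights. Over all genes, CCR2+ against MHC-IIHi macrophages gave 275 calls, against 172 with median scaling, 552 with the block, 940 with array weights, 181 with only those groups fitted and 153 to 218 with 1 array left out. CCR2+ against MHC-IIlo macrophages gave 611, against 379, 1256, 1209, 335 and 409 to 655, and MHC-IIHi against MHC-IIlo macrophages 15, against 4, 77, 90, 0 and 0 to 18, in the same order of settings. Against monocytes, the block gave 7416 calls in CCR2+ (4762 without it) and 7076 in MHC-IIlo macrophages (4682 without it), and CCR2+ macrophages had 8544 with no filter on dim probes. Leaving out 1 array gave 4 to 6, 5 to 6, 0 to 0, 7 to 7, 7 to 7 and 5 to 7 members past the threshold in CCR2+ against MHC-IIHi, CCR2+ against MHC-IIlo, MHC-IIHi against MHC-IIlo, and CCR2+, MHC-IIHi and MHC-IIlo macrophages against monocytes, and 4 to 5, 3 to 6, 0 to 0, 44 to 48, 46 to 52 and 52 to 60 other matrix genes. The cause of these shifts was not tested. The block changed no other member call than those given beside Mmp12, Mmp14 and Timp2, and of the other matrix genes called without it, it lost Mmp2 alone (MHC-IIlo macrophages against monocytes). Against monocytes the block gave 66, 67 and 66 other matrix genes in CCR2+, MHC-IIHi and MHC-IIlo macrophages, adding 15, 14 and 9. Over all genes, calls in the same comparisons rose from 4762, 4708 and 4682 to 7416, 6983 and 7076. The added calls are therefore not read as particular to matrix genes. Dim signal limits Thbs1, Mmp8, Mmp9 and the CCR2-negative values of Fn1.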
